A study of Papio hamadryas with 12 samples.

Results

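Compact nuclear genes were taken as the genes outside the mitochondrial chromosome whose span, the largest stop minus the smallest start in the table, lay between 200 and 1000 bp and whose mean level over all libraries was at least 1 CPM. CPM, a count scaled to a common library size, was computed on the total of a library without its 2 most abundant genes. Of 27533 genes in the table, 3170 had a span in this range, and 698 of these reached the level. The other compact genes either had no count in any library (1402) or stayed under 1 CPM (1070), so that 22.0% of compact genes passed, compared with 67.2% of the nuclear genes over 1000 bp (11784 of 17540). The lowest member had a mean of 1.01 CPM and the highest compact gene left out had 0.998 CPM. In total 12587 genes passed the same level.

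The libraries came from white blood cells of the buffy coat of 6 adult half-sib baboons (Papio hamadryas). The phenotype was low LDL-C in 3 of them and high LDL-C in 3. By the study's methods each low LDL-C animal had a half-sib with high LDL-C, but the labels do not say which animals belong together, so the phenotypes were compared without this pairing. All were sampled on the chow diet and again on the high-cholesterol, high-fat (HCHF) diet, so that each phenotype on each diet had 3 libraries and each baboon was its own control. Baboons 1 to 3 are the low and baboons 4 to 6 the high LDL-C animals, and the numbers carry no order. The labels name no other treatment and do not give the make-up of the cells.

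Genes of this size are often made from a single exon. Some are functional intronless genes, among them those of histones and of many receptors. Others are retrocopies, which form when a messenger RNA is copied back into DNA and inserted elsewhere in the genome. Retrocopies lack the introns of the parent gene and can stay nearly identical to it, and genes that are abundantly expressed, such as those of ribosomal proteins, have left many of them in primate genomes. A read from a shared stretch then fits several copies, and the expectation maximization that made these counts divides such reads among them, so that the level of a single copy is uncertain. The files give Ensembl IDs and positions in the baboon build PapAnu2 without gene symbols or exons. Members are therefore described by span and position, markers of blood cell types could not be checked, and the share of true retrocopies was not determined.

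Some features of the members could be read from the table. A single transcript was listed for 697 of the 698 members, and their median span was 605.5 bp. In 64.0% of members (447) the span was a multiple of 3, against 55.3% of all compact genes in the table and 35.1% of longer genes. The remaining members were divided between the other remainders, with 135 and 116 genes. Of the members, 111 (15.9%) lay inside the span of another gene, compared with 1.73% of longer genes, whose span leaves less room for nesting. Overlap with another gene of any kind was found for 17.6% of members and 21.6% of longer genes. For 88 of these the surrounding gene was also at 1 CPM or more, and the median correlation of the nested gene with its host over the 12 libraries was 0.22. In 3 pairs it reached 0.8, the highest (0.92) in the 435 bp gene on chromosome 13 from 101393630 to 101394065, at a mean of 866 CPM inside a host gene at 91.4 CPM. The counting is not stated to use strand, so reads of a nested gene and of its host cannot be told apart where they overlap.

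Members were found on all 20 autosomes and on X, and their distribution differed from that of longer genes. Chromosome 13 and the X chromosome held 50 members each (7.16%), against 3.97% and 3.28% of longer genes. Chromosome 5 held 38 (5.44% against 3.30%). Fewer members than longer genes, as a share, lay on chromosome 1 (53, 7.59% against 10.7%) and on chromosome 19 (30, 4.30% against 7.43%). A further 178 compact genes in the table lie on unplaced scaffolds, where none of the 1345 genes of any size had a count.

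The depth differed between libraries. Total counts ranged from 3434663 to 8518159, and the 2 most abundant genes, on chromosome 20 (39182 to 41379) and chromosome 14 (60046720 to 60049466), took 16.3 to 89.3% of them. Outside these genes the chow library of baboon 2 held 915109 counts. It had 0 counts for 131 members, against 13 to 47 elsewhere. Baboon 1 on chow and baboon 6 on the HCHF diet stood apart with the lowest shares of the 2 genes, 16.8% and 16.3%.

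Compact genes took 5.22 to 12.4% of the counts outside the 2 most abundant genes, with a median of 8.12%. In low LDL-C baboons 1 to 3 the share was 5.37, 12.4 and 10.5% on chow and 10.1, 6.18 and 12.3% on the HCHF diet. The high LDL-C baboons 4 to 6 had 9.23, 7.66 and 6.20% on chow and 8.32, 7.91 and 5.22% on the HCHF diet. The groups overlapped, and the share was higher on the HCHF diet in baboons 1, 3 and 5 and lower in baboons 2, 4 and 6. This order depended on the total: of all counts, with the 2 most abundant genes included, compact genes took 4.46, 1.34 and 3.77% on chow and 5.11, 2.25 and 5.03% on the HCHF diet in baboons 1 to 3, and 4.45, 3.40 and 2.96% on chow and 4.70, 4.12 and 4.37% on the HCHF diet in baboons 4 to 6, higher on the HCHF diet in all 6. Of the shares outside the 2 genes, the lowest values belonged to baboon 1 on chow and baboon 6 on the HCHF diet. A share of this kind in mixed blood cells cannot tell fewer cells of a type from less RNA per cell.

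Most compact genes were expressed at low levels, and a few were among the most abundant genes of the blood. Their median of the mean level was 7.15 CPM, compared with 14.8 CPM for longer genes, and 41.3% (288) lay between 1 and 5 CPM, against 24.0% of longer genes. At the other end, 26 members (3.72%) exceeded 1000 CPM, against 58 longer genes (0.492%), and 46 (6.59%) exceeded 500 CPM, against 111 (0.942%). The most abundant member made up 14.2% of the summed mean level of all members, the top 10 made up 38.0% and the top 50 made up 81.2%.

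Per kb of span, the median mean level of the members was 11.99 CPM, with the middle 50% between 4.60 and 50.9. It was 31.7 CPM per kb in the 161 members of 200 to 400 bp, 13.5 in the 181 members of 400 to 600 bp, 9.28 in the 192 members of 600 to 800 bp and 7.04 in the 164 longest. Without the division by span the medians were 9.56, 6.65, 6.60 and 6.65 CPM, so that beyond 400 bp the order came from the division. The filter on the level acted before this division, and of the 1327 genes of 200 to 400 bp in the table only the 161 passed.

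The 10 most abundant members had means of 1632 to 11985 CPM. The leading member, the 817 bp gene on chromosome 1 from 168572975 to 168573792, had 14669 CPM per kb. Its levels in baboons 1 to 3 were 3247, 35791 and 20975 CPM on chow and 10888, 9491 and 20617 CPM on the HCHF diet. In baboons 4 to 6 they were 10527, 8399 and 8067 CPM on chow and 8192, 4643 and 2981 CPM on the HCHF diet. The highest library was thus 12.01-fold above the lowest, and the groups overlapped between diets and between phenotypes.

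The 916 bp gene on chromosome 16 from 15795272 to 15796188 ranged more widely, from 488 to 20223 CPM with a median of 2175 CPM. It shared its highest library, the chow library of baboon 2, and its lowest, the HCHF library of baboon 6, with the leading member, the 506 bp gene on chromosome 8 from 9540710 to 9541216 (1330 to 4973 CPM) and the 387 bp gene on chromosome 5 from 80332041 to 80332428 (539 to 6137 CPM). These are also the libraries with the highest and the lowest share of the 2 most abundant genes. A high correlation with this share was therefore partly fixed by grouping these 4 members. Their log2 levels followed the log odds of the share with correlations of 0.86 to 0.95 over the 12 libraries, which share their totals. In the other 6 of the top 10 this correlation was -0.04 to 0.60 with CPM. It was 0.36 to 0.71 with TMM-adjusted CPM, in which the total of each library is multiplied by a factor that centres the differences of most genes between libraries on 0, while the first 4 stayed at 0.86 to 0.95.

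Those 6 members varied less, with a highest level 2.20 to 2.45 times the lowest. They were the 792 bp gene on chromosome 9 from 28612025 to 28612817 (1676 to 3836 CPM), the 320 bp gene on chromosome 1 from 29226608 to 29226928 (1316 to 3024 CPM, 6523 CPM per kb on average) and the 531 bp gene on chromosome 20 from 22114765 to 22115296 (1219 to 2858 CPM). The rest were the 491 bp gene on chromosome 11 from 45541793 to 45542284 (1283 to 2936 CPM), the 455 bp gene on chromosome 2 from 50643363 to 50643818 (1106 to 2708 CPM) and the 508 bp gene on chromosome 13 from 66997433 to 66997941 (1151 to 2530 CPM). All 6 had their highest level in the HCHF library of baboon 1 or of baboon 3.

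**Figure D1:**
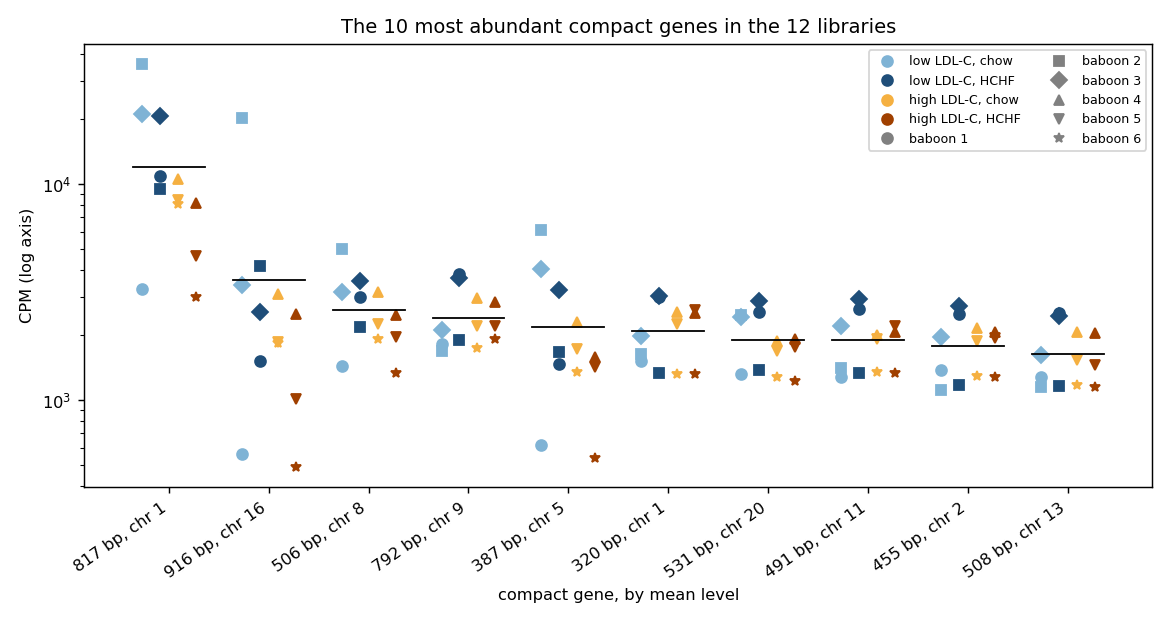
Levels in CPM (log axis) of the 10 most abundant compact genes, ordered by mean level, in the 12 libraries. Color gives phenotype and diet, the symbol gives the baboon and the black bar is the mean. The 817, 916, 506 and 387 bp genes were highest in the chow library of baboon 2, at 35791, 20223, 4973 and 6137 CPM, while the other 6 stayed between 1106 and 3836 CPM in all libraries.

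The abundant members were correlated with one another to a degree that depended on the scaling. Longer genes of such levels were not compared. Among the 46 members at 500 CPM or more, the median correlation of the log2 levels of any pair over the 12 libraries was 0.75 with CPM and 0.86 with TMM-adjusted CPM. The highest library was the HCHF library of baboon 3 for 21 of them, the HCHF library of baboon 1 for 14 and the chow library of baboon 2 for 6. In CPM the level on the HCHF diet was above that on chow for 46 of the 46 in baboon 1, for 13 in baboon 2 and for 41 in baboon 3. In TMM-adjusted CPM these counts were 46, 1 and 46.

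Pairs of members with the same span were examined because copies of one gene can keep its length. There were 419 distinct spans, and 438 members shared their span with at least 1 other, which gave 485 pairs. As many as 7 members shared a span, at 309, 381, 408 and 471 bp. Of the pairs, 31 lay on 1 chromosome and 11 of these within 1 Mb. The median correlation over the 12 libraries was 0.18 in equal-span pairs and 0.13 in the 242768 pairs of unequal span. A correlation of 0.9 or more was found in 6 equal-span pairs (1.24%), against 0.273% of the other pairs, and, where both genes were at 5 CPM or more, in 6 of 171 (3.51%) against 0.675%. Correlations are descriptive here, since pairs share genes, libraries and totals.

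The most abundant of these 6 pairs had a span of 345 bp (chromosome 2, 125780501 to 125780846, and chromosome 11, 73861221 to 73861566; correlation 0.97). The gene on chromosome 2 had 673, 989 and 1156 CPM in baboons 1 to 3 on chow, 1442, 660 and 1525 CPM in the same baboons on the HCHF diet, 1174, 879 and 686 CPM in baboons 4 to 6 on chow and 1016, 743 and 642 CPM on the HCHF diet. Its partner had 394, 679 and 715 CPM, 794, 429 and 888 CPM, 653, 568 and 394 CPM, and 639, 440 and 360 CPM in the same order. The partner was the lower of the pair in all 12 libraries, and both were highest in the HCHF library of baboon 3 and lowest in that of baboon 6.

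The 378 bp pair (chromosome 2, 172943287 to 172943665, and chromosome 13, 99894984 to 99895362) had medians of 398 and 285 CPM and a correlation of 0.91. The 299 bp pair lay on chromosome 7, from 106072361 to 106072660 and from 106363159 to 106363458, and had medians of 158 and 185 CPM (correlation 0.93). Both genes were at 294 CPM or more in 4 libraries, those of baboon 2 on either diet, of baboon 3 on chow and of baboon 4 on HCHF, and at 221 CPM or less in the other 8. The 381 bp pair (chromosome 1, 113558133 to 113558514, and chromosome 4, 26810423 to 26810804) was at medians of 10.4 and 5.59 CPM (correlation 0.95). Both of its genes were highest in the chow library of baboon 3 and lowest in that of baboon 5.

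In the remaining pairs the baboons fell into a high and a low set. The 471 bp genes at 75624992 to 75625463 of chromosome 8 and 52532403 to 52532874 of chromosome 10 (correlation 0.96) lay at 285 to 771 CPM in baboons 1, 3 and 4 on both diets and at 0.312 to 61.1 CPM in baboons 2, 5 and 6. The 408 bp genes on chromosome 6 from 161982816 to 161983224 and on X from 13531079 to 13531487 (correlation 0.96) lay at 0 to 1.89 CPM in baboons 3 and 6 and at 5.93 to 49.0 CPM in the other 4 baboons. Expectation maximization can divide the reads of near-identical copies in a fixed ratio, and whether the members of these pairs are such copies was not tested.

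**Figure D2:**
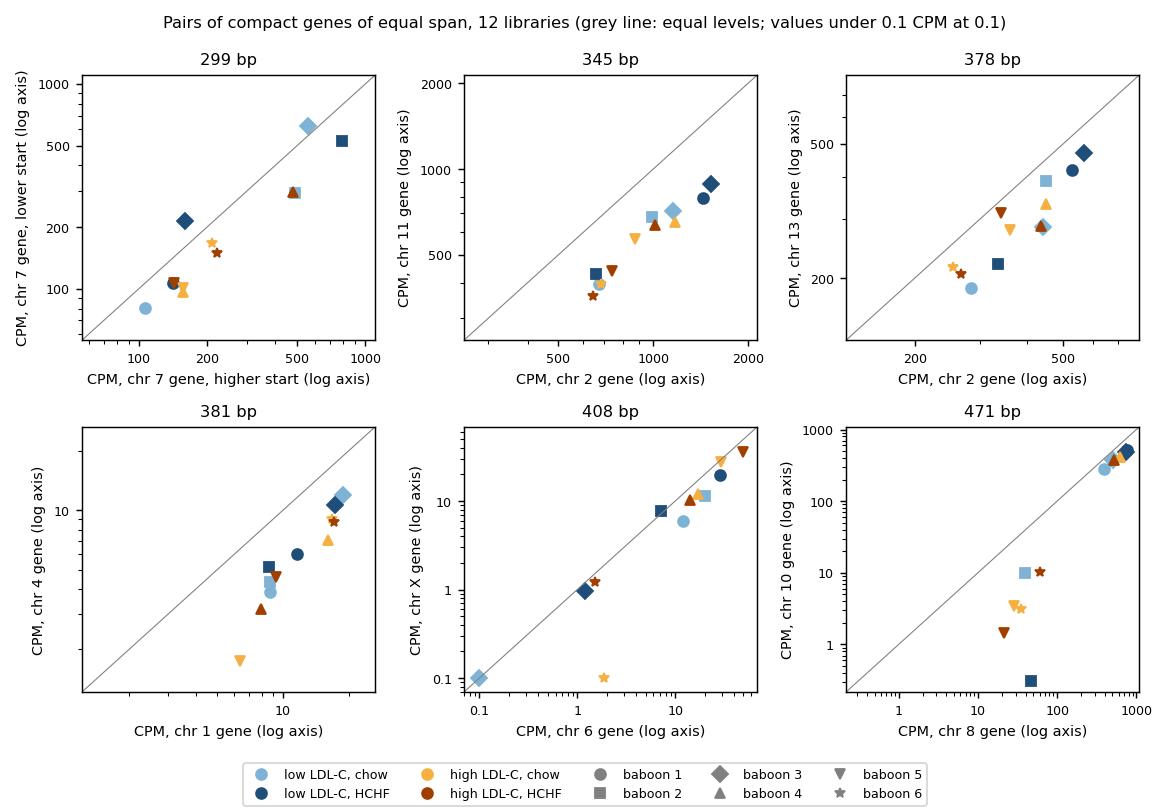
Levels in CPM (log axes) of the 6 equal-span pairs with a correlation of 0.9 or more, with 1 point per library. The grey line marks equal levels and values under 0.1 CPM are drawn at 0.1. In the 345 bp pair all 12 points lie below the line, and in the 408 and 471 bp pairs the baboons form a high and a low set.

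Equal span alone did not go with a common profile. The 817 bp leading member had a partner of the same span on chromosome 9 from 92723763 to 92724580 at a median of 16.02 CPM, and their correlation was -0.41. The 387 bp gene on chromosome 5 had partners at 61176185 to 61176572 of chromosome 5 (median 14.5 CPM, correlation 0.23) and at 123641122 to 123641509 of chromosome 1 (median 0.928 CPM, correlation 0.13). Pairs of similar abundance correlated at 0.67 (792 bp, chromosome 9 and chromosome 5 from 79177311 to 79178103) and at 0.59 (408 bp, chromosome 1 from 181338579 to 181338987 and from 195686338 to 195686746).

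The 11 pairs within 1 Mb, among them the 299 bp pair, had correlations of 0.09 to 0.93. Chromosome 4 carried 4 members of 381 bp between 26081382 and 26825031, whose 6 pairs correlated at 0.27 to 0.56 and whose medians ranged from 2.29 to 17.3 CPM. Pairs of 205 bp on chromosome 1, 384 bp on chromosome 5, 777 bp on X and 779 bp on chromosome 13 correlated at 0.15, 0.09, 0.49 and 0.82. The 779 bp genes, from 87000242 to 87001021 and from 87130970 to 87131749, were at medians of 5.46 and 18.03 CPM and were lowest in the chow library of baboon 2, with 0 and 1.09 CPM.

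The spread between baboons was measured as the standard deviation of log2(CPM + 0.5) over the 6 libraries of a diet. On chow its median was 0.73 for compact and 0.67 for longer genes, and on the HCHF diet 0.69 for both. With TMM-adjusted CPM it was 0.70 against 0.49 on chow and 0.72 against 0.64 on the HCHF diet. With log2(CPM + 1) it was 0.63 for both on chow and 0.61 against 0.63 on the HCHF diet, so that the order of the classes depended on the scale. In CPM the spread of the members fell with the level on both diets. In members of 1 to 5 CPM the median on chow was 0.93, against 0.94 for longer genes of this level, and in members over 100 CPM it was 0.42, against 0.59. The last order also changed with the scaling, since with TMM-adjusted CPM the members over 100 CPM had 0.47 and the longer genes 0.35. On the HCHF diet the values were 0.53 against 0.61 with CPM and 0.68 against 0.61 with TMM-adjusted CPM. With TMM-adjusted CPM the members of 20 to 100 CPM had 0.46 on chow and 0.64 on the HCHF diet. On this scale the spread thus did not fall further over 100 CPM. Without baboon 2 the median in CPM over all members on chow was 0.53 and that of longer genes 0.39.

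**Figure D3:**
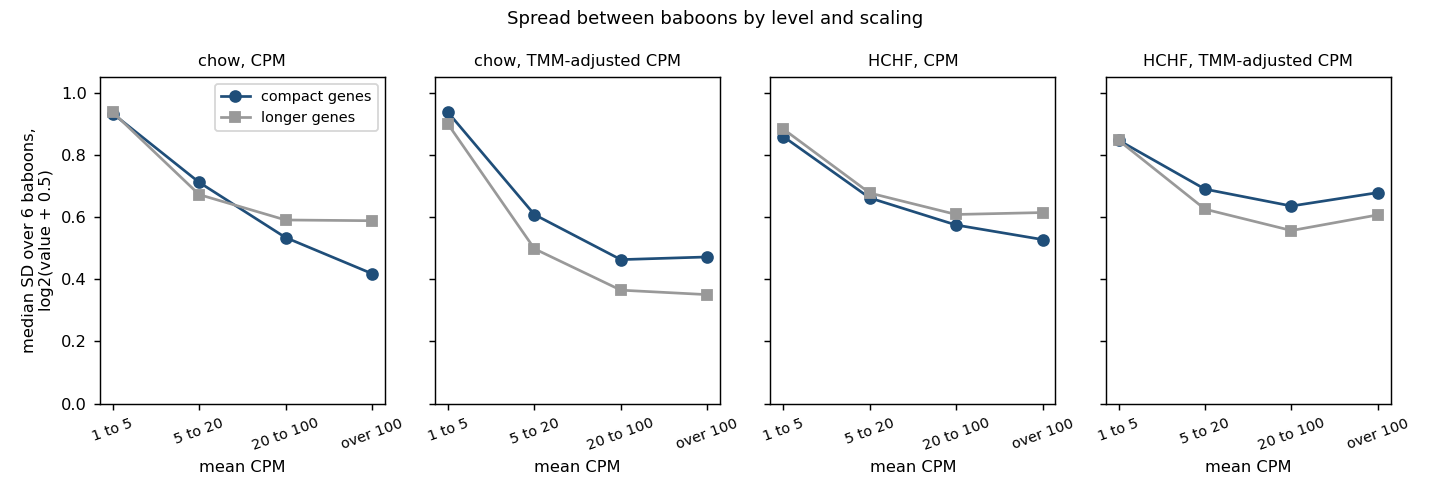
Median standard deviation over the 6 baboons of a diet, on the log2(value + 0.5) scale, by mean level for compact genes (circles) and longer genes (squares). Over 100 CPM compact genes lie below longer genes with CPM (0.42 against 0.59 on chow) and above them with TMM-adjusted CPM (0.47 against 0.35).

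A few members were much higher in some baboons than in others on both diets. Among members at 10 CPM or more, 9 of 287 (3.14%) had a standard deviation above 1.5 on each diet with TMM-adjusted CPM, compared with 66 of 7140 longer genes (0.924%). In 4 of these 9 the chow and HCHF levels of the 6 baboons correlated at 0.9 or more, compared with 3 of the 66 longer genes. The 9 include both genes of the 471 bp pair and both of the 408 bp pair on chromosome 6 and X. If reads were divided within these pairs, the 9 are not separate signals, which was not tested. The largest spread on chow (3.81) belonged to the 955 bp gene on chromosome 20 from 56901050 to 56902005. It had 171, 1.09 and 217 CPM in baboons 1 to 3 on chow and 337, 0 and 346 CPM on the HCHF diet. In baboons 4 to 6 it had 0.355, 213 and 161 CPM on chow and 0, 240 and 158 CPM on the HCHF diet. Baboons 2 and 4 were thus at 0 or 1 count on both diets, and these baboons are from different phenotypes.

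The next largest spread (3.37) was that of the 471 bp gene on chromosome 10 described above. The 408 bp gene on chromosome 13 from 663967 to 664375 had 333 and 375 CPM in baboon 5 on chow and on the HCHF diet and 3.12 to 7.36 CPM in all 10 other libraries. The 539 bp gene on chromosome 18 from 54770135 to 54770674 was high in baboons 1 (88.5 and 163 CPM) and 5 (112 and 109 CPM) and between 2.69 and 12.9 CPM in the others. In each of these genes the set of high baboons held both phenotypes or a single animal.

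The third largest spread on chow (3.22) had another form. The 971 bp gene on chromosome 1 from 135088367 to 135089338 had 366 CPM in baboon 1 on chow and at most 2.32 CPM elsewhere, also in the same baboon on the other diet. The 213 bp gene that overlaps its start, from 135088253 to 135088466, had 101 CPM in this library and at most 2.19 CPM in any other. In total 8 members reached 10 CPM in 1 library at 10 or more times the level of the next library (1.15%, against 2.25% of longer genes). Of these, 4 were high in baboon 1 on chow and 4 in baboon 6 on the HCHF diet, where the shares of the 2 most abundant genes were lowest.

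The most even members on chow, among those at 10 CPM or more, were the 282 bp gene on chromosome 5 from 130442948 to 130443230, the 222 bp gene on chromosome 7 from 14212632 to 14212854 and the 641 bp gene on chromosome 20 from 71330604 to 71331245. Their standard deviations were 0.12, 0.15 and 0.16 on the log2 scale in CPM. In TMM-adjusted CPM they were 0.41, 0.40 and 0.40, and the genes ranked 111, 109 and 107 of 287 from the most even, so that this evenness depended on the scaling. The 282 bp gene had 23.1, 22.5 and 23.9 CPM in baboons 1 to 3 and 21.1, 23.4 and 19.1 CPM in baboons 4 to 6. On the HCHF diet it ranged from 6.27 to 31.9 CPM, so that the evenness on chow did not extend to the other diet.

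**Figure D4:**
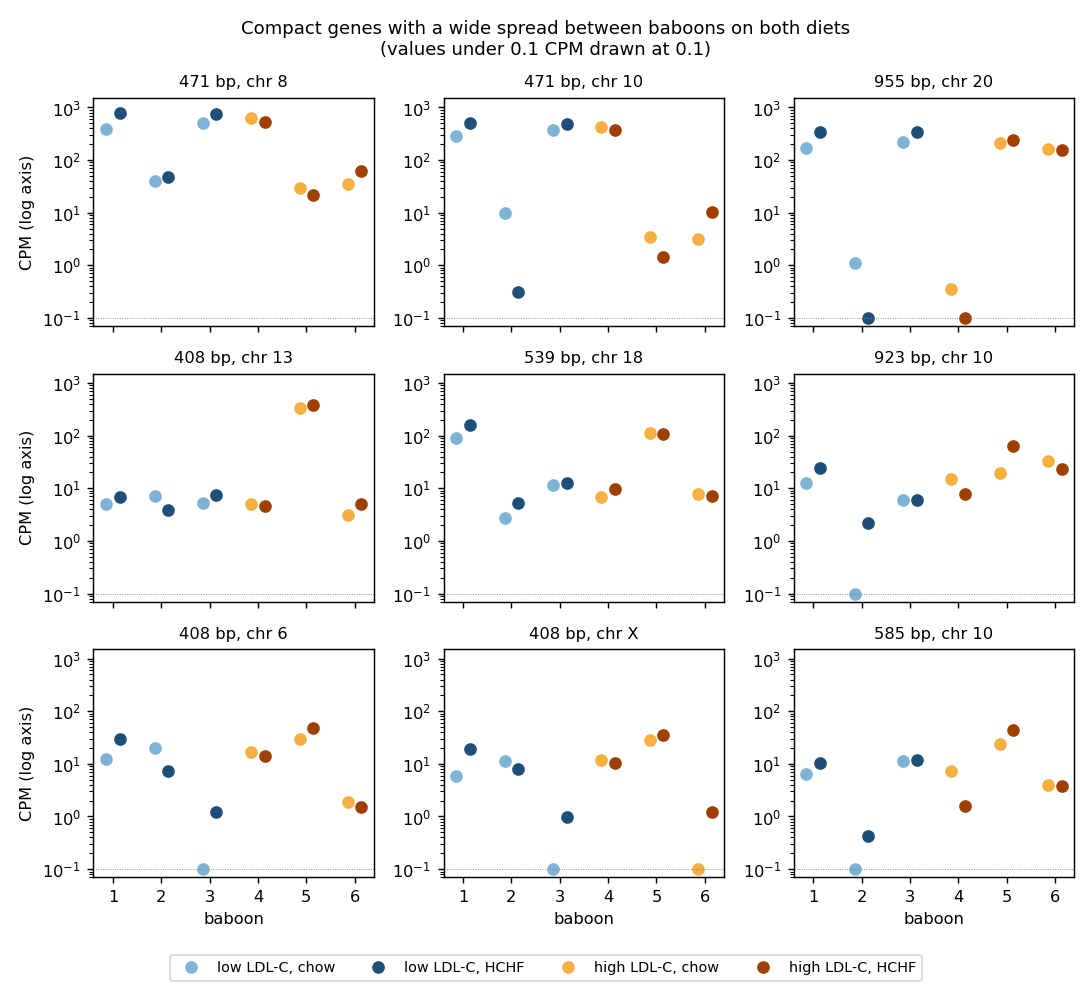
Levels in CPM (log axis) of the 9 compact genes with a standard deviation above 1.5 on each diet, by baboon, with chow and HCHF side by side and values under 0.1 CPM drawn at 0.1. The 955 bp gene lies between 158 and 346 CPM in baboons 1, 3, 5 and 6 and at 1.09 CPM or below in baboons 2 and 4.

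To ask whether compact genes responded to the HCHF diet, all 12587 genes were fitted with a term for each baboon and tested with edgeR (quasi-likelihood, two-sided). The threshold for a call was a Benjamini-Hochberg adjusted p below 0.20 together with a p below 0.05 before adjustment. Over all 6 baboons 0 of the 698 members were called, as were 0% of all genes. Before adjustment, a p below 0.05 was found for 25 members with higher and 4 with lower levels under HCHF (3.58% and 0.573%), against 2.04% and 3.03% of all genes. DESeq2 and limma called 0 members, against 0.389% and 0% of all genes, and DESeq2 gave an adjusted p for 5754 genes. The median log2 fold change of the members was 0.19, and 68.2% (476) had a value above 0. Longer genes had a median of -0.04, with 45.3% above 0. The median of the members was 0.10 without baboon 1, 0.31 without baboon 2 and 0.11 without baboon 3.

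In TMM-adjusted CPM all 6 baboons were higher on the HCHF diet for 20 members (2.87%, against 1.76% of longer genes), and all 6 were lower for 0 members, against 272 longer genes (2.31%). In CPM 12 members were higher (1.72%, against 0.730%) and 1 was lower in all 6 (0.143%, against 2.31%). Among members at an unadjusted p under 0.05 with the same direction in all 6, the largest difference was that of the 457 bp gene on chromosome 7 from 41185024 to 41185481. It had 1.70, 0 and 3.25 CPM in baboons 1 to 3 on chow and 3.05, 2.37 and 6.73 CPM on the HCHF diet. In baboons 4 to 6 it had 2.39, 3.20 and 1.17 CPM on chow and 3.02, 4.12 and 4.24 CPM on the HCHF diet. Its log2 fold change was 1.23 ± 0.47 (SE; unadjusted p = 0.0241, adjusted p = 0.970), at no more than 13 counts in a library.

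For the responses by phenotype, all 12 libraries were fitted together with a diet term for each phenotype. The test in 1 phenotype thus also drew its estimate of the spread from the other. In low LDL-C baboons 0 members were called, against 0% of all genes, and the lowest adjusted p of a member was 0.434 (edgeR). A p below 0.05 before adjustment was found for 35 higher and 10 lower members (5.01% and 1.43%), compared with 1.53% and 4.16% of all genes. DESeq2 and limma called 0 members, against 0.103% and 0% of all genes. The median log2 fold change was 0.35, with 71.3% of members above 0, whereas longer genes had -0.09 and 43.5%. Without baboon 1, 2 or 3 the median of the members was 0.16, 0.70 or 0.24. The difference from longer genes was present in each band of level. The highest median of the members, 0.53, was that of the 88 over 100 CPM, of which 81 were above 0, against -0.04 in longer genes of this level.

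The 3 low LDL-C baboons did not share this change. The median log2 change of the members from chow to the HCHF diet, in TMM-adjusted CPM, was 0.66 in baboon 1, -0.20 in baboon 2 and 0.57 in baboon 3, against -0.13, 0.18 and -0.06 in longer genes. In members over 100 CPM it was 1.46, -0.80 and 0.92. In CPM the medians were 0.17, 0.23 and 0.05 in members and -0.62, 0.70 and -0.59 in longer genes, so that the sign for the members of baboon 2 depended on the scaling. With both scalings the members lay above longer genes in baboons 1 and 3 and below them in baboon 2. In members over 100 CPM the medians in CPM were 0.93, -0.25 and 0.38. The share of the 2 most abundant genes rose from 16.8 to 49.2% in baboon 1, fell from 89.3 to 63.6% in baboon 2 and went from 63.9 to 59.1% in baboon 3. The median log2 change of the 34 mitochondrial genes was 0.65, 0.73 and 1.34. The part of either in the change of the compact genes was not tested.

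The change differed between spans. Another scaling moves the values of a baboon by amounts that differ with the level, and the values given here are in TMM-adjusted CPM. In baboon 1 the median was 0.64 at 200 to 400 bp, 0.80 at 400 to 600 bp, 0.33 at 800 to 1000 bp, 0.08 at 2 to 5 kb, -0.21 at 20 to 100 kb and -0.11 over 100 kb. In baboon 3 the same bins had 0.62, 0.67, 0.43, 0.00, -0.12 and -0.19. In baboon 2 they had -0.51, -0.28, -0.07, 0.02, 0.25 and 0.13. None of the 3 baboons had a strict order over all bins. In the high LDL-C baboons 4 and 6 the medians of the bins under 1 kb lay between -0.09 and 0.03, and those over 100 kb were 0.07 and 0.15. Baboon 5 had 0.28 and 0.32 in the shortest bins, 0.35 at 2 to 5 kb and -0.50 over 100 kb. No measure of RNA integrity per library was used here, and its part in the differences by span was not tested.

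**Figure D5:**
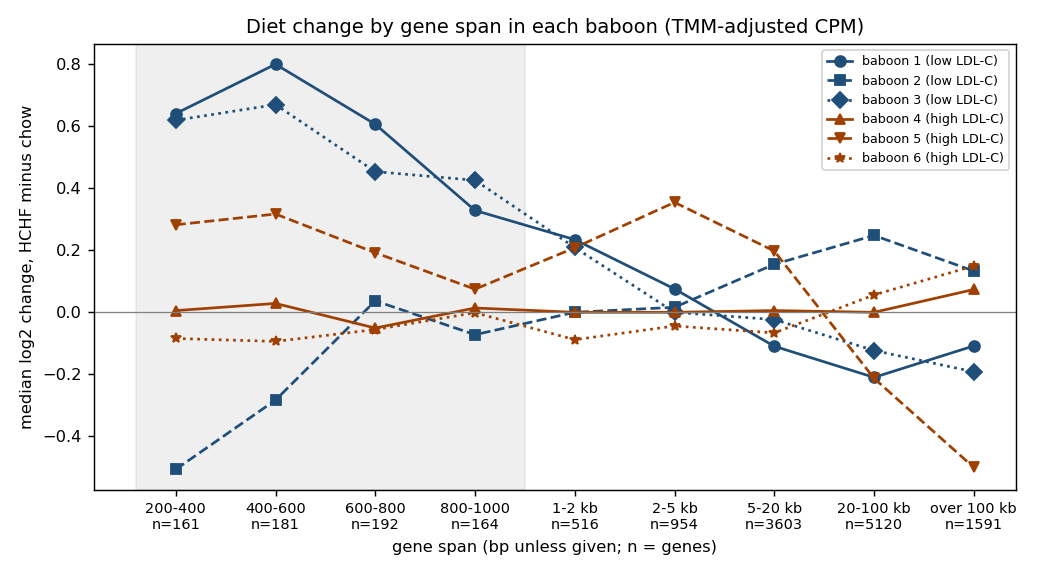
Median log2 change from chow to the HCHF diet in TMM-adjusted CPM for genes grouped by span, with 1 line per baboon. The shaded bins are the compact genes. At 400 to 600 bp baboons 1 and 3 lie at 0.80 and 0.67 and baboon 2 at -0.28, and at 20 to 100 kb they lie at -0.21, -0.12 and 0.25. In CPM without TMM factors each line would move, by amounts that differ with the level of the genes.

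Leaving out a single baboon decided the count in low LDL-C baboons. These fits still included the high LDL-C baboons, which entered the estimate of the spread. Without baboon 2, edgeR called 112 higher and 6 lower members after HCHF, that is 16.05% of members higher, against 2.34% of longer genes and 3.23% of all genes (4.31% of all genes were lower). Their log2 fold changes were 0.92 to 6.75 (median 1.31) at adjusted p-values of 0.126 to 0.199, and 66 of the 112 were at 100 CPM or more. In baboon 2 itself 98 of these 112 were lower on the HCHF diet and 14 higher in TMM-adjusted CPM (median log2 change -0.80), and 68 were lower and 44 higher in CPM (median -0.25). Without baboon 1, 0 members were called (0% of all genes), and without baboon 3 there were 0 higher and 2 lower (0.54% of all genes were lower).

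Among members with a p below 0.05 before adjustment and the same direction in all 3 low LDL-C baboons, ENSPANG00000010652 (474 bp, chromosome 2 from 184534679 to 184535153) had the highest log2 fold change, 3.34 ± 1.22 (SE, edgeR adjusted p = 0.743). It had 2, 0 and 0 counts in baboons 1 to 3 on chow and 5, 3 and 9 on the HCHF diet. The ratio of the pooled counts, scaled by library totals, was 7.66, with an exact 95% interval of 1.82 to 68.4 that covers counting error only. ENSPANG00000020750 (367 bp, chromosome 9 from 105556895 to 105557262) had the lowest, -2.41 ± 0.95 (adjusted p = 0.780). It had 14, 2 and 2 counts on chow and 1, 2 and 0 on the HCHF diet, and the pooled ratio of chow to HCHF was 6.66 (1.94 to 35.3). Both were measured with few counts, were chosen as extremes of this contrast and were not called. The fold change of the first was 6.28 without baboon 1 and 2.52 without baboon 3.

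In high LDL-C baboons 0 members were called, while 22 longer genes were, all higher on the HCHF diet (0.175% of all genes). Before adjustment a p below 0.05 was found for 12 higher and 5 lower members (1.72% and 0.716%), compared with 2.87% and 1.49% of all genes. DESeq2 and limma called 0 members and 0% of all genes. The 22 calls became 0 without baboon 5 and without baboon 6, 60 without baboon 1 and 41 without baboon 4. Baboon 1, a low LDL-C animal, acts on these calls only through the shared fit. The median log2 fold change was 0.06 for members and -0.00 for longer genes, with 56.2% and 49.9% above 0. Without baboon 5 it was -0.04 in members and 0.01 in longer genes, and without baboon 4 it was 0.14 and -0.01. By baboon the medians of the members were 0.00, 0.23 and -0.07 in baboons 4 to 6, against 0.00, -0.02 and 0.01 in longer genes (TMM-adjusted CPM). In CPM they were -0.10, -0.03 and 0.00 in members and -0.07, -0.30 and 0.10 in longer genes.

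ENSPANG00000018503 (604 bp, X from 92663830 to 92664434) had the highest log2 fold change of this phenotype among members with a p below 0.05 before adjustment and the same direction in all 3 baboons, 2.48 ± 1.06 (SE, edgeR adjusted p = 1). It had 0, 0 and 3 counts on chow and 1, 1 and 24 on the HCHF diet, so that most of its counts came from the HCHF library of baboon 6. Outside the HCHF libraries of this phenotype its mean was 0.673 CPM, so that it passed the filter only through the group where it was high. In the same set ENSPANG00000015468 (777 bp, chromosome 3 from 38719324 to 38720101) had the lowest, -1.59 ± 0.49 (adjusted p = 0.767). Its levels in baboons 4 to 6 were 9.58, 6.38 and 8.58 CPM on chow and 2.38, 1.54 and 3.83 CPM on the HCHF diet. Its counts were 27, 11 and 17 on chow and 6, 3 and 11 on the HCHF diet. Both genes were chosen as extremes of this contrast and were not called.

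A differing diet response of the phenotypes (high minus low LDL-C) was called in 0 members and in 33 other genes (0.262% of all genes, all with the higher value in high LDL-C baboons). The calls over all genes became 0 without baboon 1 and without baboon 6, 3 without baboon 5, 74 without baboon 2, 96 without baboon 3 and 68 without baboon 4. With a p below 0.05 before adjustment, 10 members had a higher and 20 a lower value, 1.43% and 2.87%, against 3.69% and 0.993% of all genes. DESeq2 and limma called 0 members, against 0.0318% and 0% of all genes. The median difference was -0.26 on the log2 scale for members and 0.05 for longer genes, and in members over 100 CPM it was below 0 in 83 of 88. The median of the members was -0.07 without baboon 1, -0.65 without baboon 2, -0.16 without baboon 3, -0.43 without baboon 5 and -0.00 without both of baboons 1 and 6. Among members with a p below 0.05 before adjustment whose low LDL-C baboons all changed one way and high LDL-C baboons all the other way, the 752 bp gene on chromosome 5 from 54742670 to 54743422 had the lowest value, -3.24 ± 0.96 (SE, edgeR adjusted p = 0.515), with 4, 0 and 2 counts on chow and 12, 5 and 12 on the HCHF diet in baboons 1 to 3, and 10, 7 and 8 against 7, 2 and 11 in baboons 4 to 6. In the same set the 339 bp gene on chromosome 3 from 15707906 to 15708245 had the highest, 2.48 ± 1.08 (adjusted p = 1), with 11, 2 and 6 counts on chow and 2, 3 and 2 on the HCHF diet in baboons 1 to 3, and 6, 2 and 1 against 6, 5 and 8 in baboons 4 to 6. The directions are those in TMM-adjusted CPM and rest on few counts. Before scaling, baboon 6 did not show them for the 752 bp gene, nor baboons 2 and 4 for the 339 bp gene.

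High and low LDL-C baboons were also compared within each diet. On chow edgeR called 0 members (0% of all genes). High LDL-C baboons had higher levels of 7 and lower levels of 21 members at a p below 0.05 before adjustment (1.003% and 3.01%, against 0.977% and 4.99% of all genes). DESeq2 and limma called 0 members, against 0.254% and 0% of all genes, and the median log2 difference was -0.12, against -0.01 in longer genes. Without baboon 2 it was 0.00 in members and -0.01 in longer genes, and without baboon 1 it was -0.19 and 0.05. The 393 bp gene on chromosome 4 from 26141941 to 26142334 was the highest among members with such a p whose groups did not overlap, at 2.70 ± 1.01 (SE, adjusted p = 0.816), with 21, 2 and 9 counts in high and 4, 0 and 0 in low LDL-C baboons. The 497 bp gene on chromosome 20 from 63223753 to 63224250 was the lowest of them, at -3.65 ± 1.34 (adjusted p = 0.816), with 1, 0 and 0 counts against 2, 2 and 6 (pooled ratio of low to high 10.7, counting interval 1.52 to 462, in a gene chosen as an extreme of this contrast).

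On the HCHF diet edgeR again called 0 members (0% of all genes), and limma called 0. DESeq2 called 6 members (0.86%), all lower in high LDL-C baboons, as were 0.27% of all genes, and gave an adjusted p for 5471 of the 12587 genes. A p below 0.05 before adjustment was reached by 18 higher and 26 lower members (2.58% and 3.72%), compared with 4.01% and 1.85% of all genes. The median log2 difference was -0.30 in members and 0.13 in longer genes. Of the members over 100 CPM, 83 of 88 were lower in high LDL-C baboons, at a median of -0.69. These values were computed with TMM factors. In CPM without them, the median level of the members in a library was 4.75 to 7.07 in low and 6.74 to 7.20 in high LDL-C baboons. By this measure the members were not lower in high LDL-C baboons. Members over 100 CPM were not compared between phenotypes without the factors. With the factors, the median difference over all members was -0.48 without baboon 2, -0.14 without baboon 3 and -0.59 without baboon 5. That of longer genes was -0.03 without baboon 6. The 495 bp gene on chromosome 20 from 27597127 to 27597622 was the highest among members with such a p whose groups did not overlap (2.82 ± 1.24 SE, edgeR adjusted p = 0.837), with 3, 13 and 3 counts against 1, 1 and 0. The 383 bp gene on chromosome 19 from 10478909 to 10479292 was the lowest of them (-2.96 ± 1.13, adjusted p = 0.837), with 1, 1 and 0 counts against 3, 3 and 7. Both passed the filter only through the group where they were high, since their means in the other 9 libraries were 0.437 and 0.980 CPM.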

How the data were processed

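Paired-end reads were trimmed by the authors and mapped with STAR 2.3.1j to baboon transcripts (build PapAnu2), which Partek quantified by expectation maximization. The deposited values used here are expected counts per transcript, which the authors did not scale for length or depth. Base calls came from CASAVA 1.8 per the labels. The 29300 transcripts were summed to 27533 genes with Python 3.11.15 and rounded for the tests.

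CPM used the total without the 2 most abundant genes, which were also left out of the fits. Genes with a mean CPM of 1 or more were tested with edgeR 4.0.16 (TMM, glmQLFit, glmQLFTest) in R 4.3.3, with DESeq2 1.42.0 and limma 3.58.1 as alternatives. Chow and HCHF libraries were paired by the animal labels. The deviations of the 2 libraries of a baboon from their group means correlated at 0.17, 0.09, 0.22, 0.36, 0.24 and 0.15 over all genes tested. Libraries of different baboons were not correlated in this way, so these values do not test the pairing. The edgeR fit over all 6 baboons was tested on simulated counts with known large fold changes. The simulation had the same dispersion for all genes and no differences between baboons, and so was simpler than these data. The tests by phenotype were not simulated. In the diet comparisons a p-value weighs the change against the variation left after the term for each baboon. Within a diet it weighs the difference of the phenotypes against the spread inside them. Both rest on these 6 animals.

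Members named were the 10 most abundant, the extremes of each comparison at an unadjusted p under 0.05 with a common direction in TMM-adjusted CPM, equal-span pairs by level, correlation or distance, and the extremes of spread on chow. The members, lists and rules were chosen with earlier results of these data known. Planned lists of genes and cell type markers were not applied, since IDs were not paired with symbols.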

Additional observations from a re-analysis of the deposited data

How the results depend on the processing

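In each of the 6 comparisons the count of called members was 0 in edgeR, and it stayed 0 under RLE size factors, limma, robust empirical Bayes, an FDR of 5%, a mean CPM of 5 or more and library sizes that included the 2 most abundant genes. The replicate block pairs the libraries of each baboon, and without it the 4 diet comparisons also had 0 called members. With no filter on low counts there were 7 called members in low LDL-C baboons (1%, against 1.57% of the 18386 genes tested), 4 in high LDL-C baboons (0.573% against 1.19%), 7 for the difference between them (1% against 1.7%) and 15 between phenotypes on the HCHF diet (2.15% against 2.01%), where DESeq2 called 6 (0.86%, against 0.318% of all genes). Leaving out 1 baboon at a time gave 0 to 118 in low LDL-C baboons. The 118 came without baboon 2 (16.9%, against 7.55% of all genes), and without baboon 3 there were 2 (0.287% against 0.54%). The same step gave 0 to 1 for the difference (0.143% without baboon 2 or 3, against 0.588% and 0.763% of all genes), 0 to 2 between phenotypes on chow (0.287% without baboon 1, against 0.207%) and 0 to 0 in the other 3 comparisons. Settings chosen after seeing the data left out baboons 1 and 6, with 1 called member between phenotypes on chow (0.143%, as of all genes) and 1 on the HCHF diet (0.143% against 0.0636%), or baboons 1, 2 and 6, with 15 (2.15% against 1.06%) and 2 (0.287% against 0.103%). The last setting sets baboon 3 alone against baboons 4 and 5, and its calls assume that this lone sample varies like the other group.

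The median log2 fold change of the members stayed above 0 over all 6 baboons (0.10 to 0.31) and in low LDL-C baboons (0.15 to 0.70), and ranged from -0.04 to 0.14 in high LDL-C baboons. Leaving out 1 baboon at a time gave -0.65 to -0.07 for the difference, -0.19 to 0.00 between phenotypes on chow and -0.59 to -0.14 on the HCHF diet. These fits all used TMM factors, and the phenotypes within a diet were not fitted again without them. The changes of single baboons in CPM without TMM factors, given with the results, were also chosen after seeing the data. The 4 genes given by ID kept their direction under all settings in which they were fitted. The members were 697 with a single transcript, 257 of 200 to 500 bp and 441 above. Of the full totals, compact genes took a median of 4.25%. The median spread was 0.63 on chow and 0.61 on the HCHF diet with log2(CPM + 1), and 0.72 on the HCHF diet with TMM-adjusted CPM (chosen after seeing the data). Leaving out 1 baboon at a time gave 0.53 to 0.76 on chow and 0.64 to 0.71 on the HCHF diet. Members under 5 CPM rest on few counts, in particular in the chow library of baboon 2.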
